A study of Mus musculus with 3 samples.

Results

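The 87 genes described here encode the proteins of the cytosolic ribosome and their close relatives, out of 26970 genes measured in the mouse mandibular condyle. They were chosen by symbol, as every gene named Rpl, Rps or Rplp with a number, leaving out symbols that end in -ps (numbered pseudogenes) and the Rps6k kinases. By annotation, 46 of them encode proteins of the large subunit and 30 proteins of the small subunit. Another 6 are paralogs named after a standard subunit gene (Rpl3l, Rpl7l1, Rpl22l1, Rpl36al, Rpl39l and Rps27l), and 5 carry an ordinary symbol but are annotated as pseudogenes (Rpl6l, Rpl32l, Rps3a2, Rps3a3 and Rps4l). The tissue was the condyle of the lower jaw, taken with the interface of cartilage and subchondral bone intact, from mice 4 months old on a C57BL/6 background. The groups were WT, Dspp+/- and Dspp-/-, with the Dspp allele deleted in the whole animal and not in a chosen cell type. There was 1 poly(A)-selected library per genotype, so no difference below has a replicate check and none was tested. The WT and the Dspp+/- library each came from pooled tissue of 3 animals, and the number of animals behind the Dspp-/- library is not given in the sources used here. Dspp itself was not analysed here.

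A ribosome is built of a small subunit that reads the messenger RNA and a large subunit that joins amino acids, each made of ribosomal RNA and a set of small basic proteins. The ribosomal protein genes are among the most abundantly transcribed genes of most cells, because each protein is needed in about equal numbers in every ribosome. Their messenger RNAs in vertebrates typically start with a C followed by a run of pyrimidines, the terminal oligopyrimidine (TOP) motif, through which mTOR signalling adjusts their translation. In cartilage and bone, matrix-secreting cells rely on a large capacity for protein synthesis. Most of these genes have also left many processed copies across the mouse genome, which makes short reads hard to assign to one locus.

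Levels are given in FPKM, fragment counts scaled to exon length and to library depth, so they can be compared between genes. Dividing the values back into whole fragments gave depths of 20242000, 23614000 and 22253000 fragments for WT, Dspp+/- and Dspp-/-, to the nearest 1000. Levels of cell type markers differed between the libraries. Summed FPKM of 15 chondrocyte markers was 1943, 595 and 901 in WT, Dspp+/- and Dspp-/-, and that of 12 osteoblast and osteocyte markers was 14302, 3928 and 7498. The chondrocyte marker Matn1 was near 0, so cartilage identity rested on the other markers. WT was instead the lowest library for 12 erythroid markers, at 953, 3814 and 3712, and for 10 neutrophil markers, at 619, 2802 and 3701. Mitochondrially encoded genes took 25.0%, 36.9% and 37.3% of all FPKM in the same order. The part of these markers' cell types in the results below was not tested, and in bulk tissue fewer cells of a type and less RNA per cell cannot be told apart.

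The most abundant members in WT came from both subunits. Rplp1, an acidic protein of the stalk that recruits translation factors to the large subunit, was the most abundant member at 1064, 881 and 939 FPKM in WT, Dspp+/- and Dspp-/-. Rps3a1, a small subunit protein, followed at 609, 588 and 664 FPKM. Rplp0, the protein that anchors the stalk to the large subunit, stood at 488, 467 and 426 FPKM. These and the next members in the WT order, Rps15 (358, 321 and 256 FPKM) and Rpl4 (342, 326 and 310 FPKM), kept WT as the highest library except for Rps3a1, which was highest in Dspp-/-.

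At the low end stood relatives and copies rather than standard subunit genes, with 1 exception. Rpl32l was listed at 0 in WT and Dspp-/- and at 0.106 FPKM in Dspp+/-. Rpl36al, a paralog of Rpl36a, had 13, 16 and 3 fragments in WT, Dspp+/- and Dspp-/-. Rps10, a standard small subunit gene, had 36, 42 and 43 fragments, or 0.770, 0.770 and 0.836 FPKM. These 3 genes did not pass the filter used for all ratios below, a mean FPKM of 1 or more, which left 84 members and 13026 genes in all.

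FPKM of these genes depends on the exon length used. The length behind the values merges all annotated exons of a gene and was a median of 2.34 times the length of the main transcript, reaching 9.80 times for the most affected member. Over the 76 standard subunit genes, the ratio of the upper to the lower quartile of WT levels was 3.01 on the merged length and 2.23 on the length of the main transcript. The highest over the lowest of them was 1383 on the first length and 298 on the second. Single places in the order moved far: Rpl36 was in place 9 of the 87 members on the merged length and 45 on the main transcript, Rpl13 in place 16 and 3, and Rpl4 in place 5 and 15. Plain ratios of FPKM of 1 gene between libraries do not depend on the length. Ratios taken after adding 1 to FPKM, used for the medians and counts below, do depend on it at low levels, and so does the filter.

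Ribosomal protein genes were lower in both mutants than in WT, by a small amount and together. In Dspp+/-, 76 of the 84 members were below WT and 8 above, against 43.7% of all genes below WT, and the median log2 ratio of FPKM with 1 added was -0.22 against 0.06 for all genes. In Dspp-/-, 67 were below WT and 17 above, against 49.3% of all genes below, and the medians were -0.19 for members and 0.007 for all genes. Few members were far from WT. At 1.5-fold or more, 7 members were lower in Dspp+/- (all genes 8.95%) and 0 were higher (all genes 11.5%). In Dspp-/-, 6 were lower (all genes 8.21%) and 1 was higher (all genes 8.84%). The shares of members past 1.5-fold were thus near or below the background, and the family differed from all genes by a common small displacement. A displacement of like size was not particular to it. In Dspp+/- the median was 0.22 for proteasome subunits, with 33 of 37 higher, and 0.21 for ribosome assembly factors, with 28 of 35 higher. The direction there was the opposite one.

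The members had a narrower spread than genes at large, though not than other functional groups. The interquartile range of their log2 ratios was 0.24 in Dspp+/- and 0.38 in Dspp-/-, against 0.52 for all genes in each comparison. The 668 genes whose mean FPKM was 50 or more had interquartile ranges of 0.82 and 0.62 and medians of 0.11 and -0.07. Groups of genes with related functions were about as tight as the members. Their interquartile ranges were 0.19 and 0.27 for 35 ribosome assembly factors and 0.26 and 0.31 for 37 proteasome subunits. They were 0.26 and 0.38 for 29 genes listed for translation initiation. Both comparisons share the WT library, so a value particular to that library enters both.

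Scaling moved the size of the displacement but not its sign. Under the 5 other scalings tried, the members' median lay between -0.35 and -0.11 in Dspp+/- and between -0.32 and -0.08 in Dspp-/-. The lowest values came from scaling to 9 housekeeping genes, which shifted every ratio by -0.14 in each mutant. The highest came from leaving out the mitochondrially encoded genes, which shifted ratios by 0.12 and 0.11. A scaling moves all genes of a library alike, so a member that lies closer to 0 than these shifts can change sign.

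**Figure D1:**
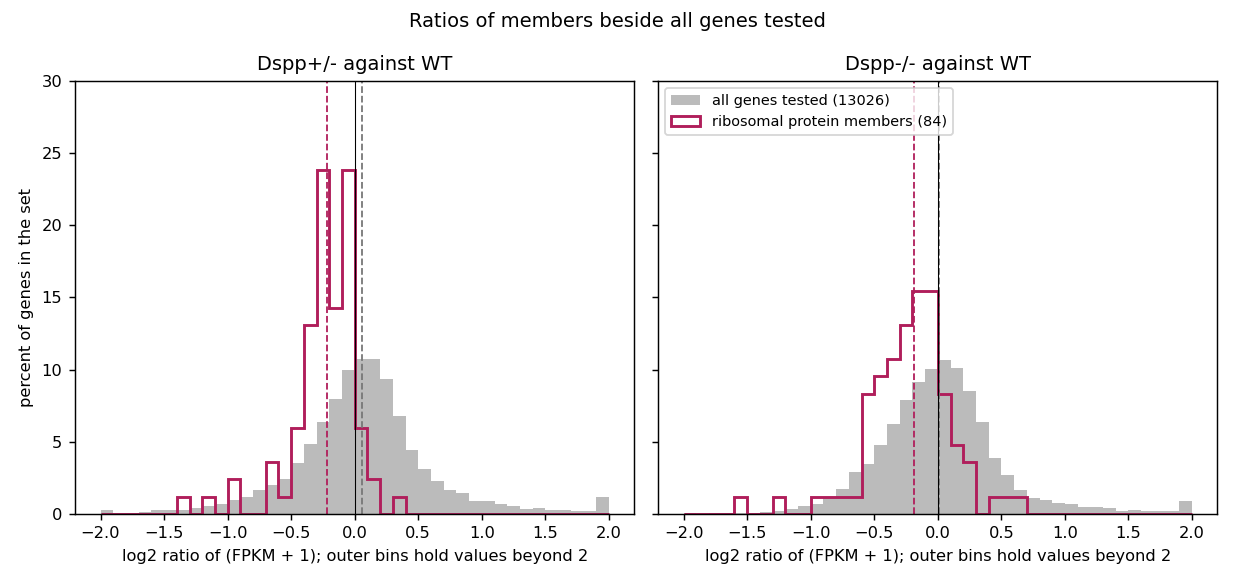
Histograms of the log2 ratio of FPKM with 1 added for the 84 members (outline) and all 13026 genes that passed the filter (grey), in percent of each set, for Dspp+/- and Dspp-/- against WT, with dashed lines at the medians. The members are centred at -0.22 and -0.19, a sign that every scaling tried kept, and all genes at 0.06 and 0.007, whose sign turned with the scaling.

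The family's share of the library was lower in both mutants as well. The 87 members took 3.60%, 2.73% and 2.76% of all FPKM in WT, Dspp+/- and Dspp-/-. Much of that gap went with the mitochondrially encoded genes. With those genes left out of the total the shares were 4.81%, 4.33% and 4.40%. Counted as fragments, which weighs long genes more, the shares were 1.84%, 1.64% and 1.59%.

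Large subunit genes lay further below WT than small subunit genes. Of the 46 large subunit genes, 44 were below WT in Dspp+/- and 41 in Dspp-/-, with median log2 ratios of -0.25 and -0.23. Of the 29 small subunit genes that passed the filter, 24 and 21 were below WT, with medians of -0.13 and -0.10. The medians differed by -0.11 in Dspp+/- and by -0.13 in Dspp-/-, which is less than the interquartile range within either subunit (0.25 and 0.19 in Dspp+/-, 0.30 and 0.31 in Dspp-/-). The large subunit median was negative under every scaling, whereas the small subunit median in Dspp-/- reached 0.01 with the mitochondrially encoded genes left out. Adjusting all genes for GC content brought the differences to -0.05 and -0.09.

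The members that lay furthest below WT in Dspp+/- were Rpl7a, Rps4l, Rpl39l, Rpl21 and Rps12. Rpl7a, a large subunit gene on chromosome 2, stood at 76.6, 30.4 and 31.0 FPKM in WT, Dspp+/- and Dspp-/-. Its fold was 0.397 in Dspp+/- (95% counting interval 0.371 to 0.424) and 0.404 in Dspp-/- (0.378 to 0.433). Both mutants were alike and well under WT. Folds are ratios of FPKM, and the intervals hold counting error alone, without any spread between animals.

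Rpl21, another large subunit gene, had the same pattern at a lower level, with 8.63, 4.12 and 3.82 FPKM in WT, Dspp+/- and Dspp-/-. Its folds were 0.478 (0.416 to 0.547) and 0.443 (0.383 to 0.510). Rpl7a and Rpl21 were the members that passed 1.5-fold in both mutants. With the fragments of their copies in the genome added, Rpl21 was 0.700 times WT in Dspp+/- and no longer passed there, and Rpl7a was 0.618 and 0.575 times WT. Rps12, a small subunit gene, was lower in Dspp+/- alone, at 102, 63.6 and 101 FPKM in WT, Dspp+/- and Dspp-/-, with folds of 0.625 (0.596 to 0.655) and 0.992 (0.951 to 1.03). Rpl41, which encodes the smallest protein of the large subunit, stood at 172, 109 and 130 FPKM, and Rps28 of the small subunit at 13.1, 8.20 and 10.5 FPKM, so Dspp+/- was the lowest library for both. Their folds in Dspp+/- were 0.631 (0.602 to 0.662) and 0.625 (0.541 to 0.721). Both lay under 1.5-fold with the mitochondrially encoded genes left out of the scaling.

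In Dspp-/- the members furthest below WT were Rps27a, Rpl7a, Rpl21, Rpl8 and Rplp2. Rps27a, which encodes a ubiquitin fused to a small subunit protein, stood at 94.6, 79.7 and 32.1 FPKM in WT, Dspp+/- and Dspp-/-. The Dspp-/- library held 1408 fragments of it, against 3775 in WT and 3709 in Dspp+/-. Dspp+/- had a fold of 0.842 (0.805 to 0.882) and Dspp-/- one of 0.339 (0.319 to 0.361), where the log2 ratio of -1.53 was the lowest of the 84 members in either comparison.

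Rpl8, a large subunit protein near the site of peptide bond formation, stood at 290, 244 and 159 FPKM in WT, Dspp+/- and Dspp-/-. Its fold in Dspp-/- was 0.547 (0.528 to 0.567). Rplp2, the partner of Rplp1 in the stalk, had 76.2, 58.3 and 45.2 FPKM and a fold of 0.593 (0.561 to 0.627). Rpl13 of the large subunit also passed 1.5-fold there, with 201, 167 and 124 FPKM and a fold of 0.617 (0.599 to 0.636). All 3 were lowest in Dspp-/- and intermediate in Dspp+/-.

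Above the family, the largest ratio in Dspp-/- belonged to Rpl17. This large subunit gene stood at 65.4, 68.6 and 101 FPKM in WT, Dspp+/- and Dspp-/-, with a fold of 1.55 (1.46 to 1.64) in Dspp-/-, the single member past 1.5-fold in that direction. Rps27 of the small subunit followed at 63.8, 65.1 and 91.8 FPKM, a fold of 1.44 (1.34 to 1.54). Rpl39, a small protein at the exit tunnel of the large subunit, was at 72.7, 58.1 and 89.7 FPKM, with folds of 0.800 (0.752 to 0.851) and 1.23 (1.17 to 1.31). Rpl39 was thus below WT in one mutant and above it in the other.

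In Dspp+/- the members above WT were close to it. Besides the paralog Rpl3l they included Rpl13a, a large subunit protein with a known role in interferon responses, at 5.91, 6.71 and 4.89 FPKM in WT, Dspp+/- and Dspp-/-. Its fold of 1.14 had a counting interval that held 1 (0.961 to 1.34). Rps18, a small subunit gene, had 90.2, 95.4 and 79.2 FPKM and a fold of 1.06 (1.02 to 1.10) in Dspp+/-. With the fragments of its copies in the genome added, Rps18 was 0.978 times WT (0.941 to 1.02) there, and the interval held 1. Rps18 lay below WT in Dspp+/- under scaling to housekeeping genes, while Rpl13a and Rpl3l stayed above it under every scaling.

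**Figure D2:**
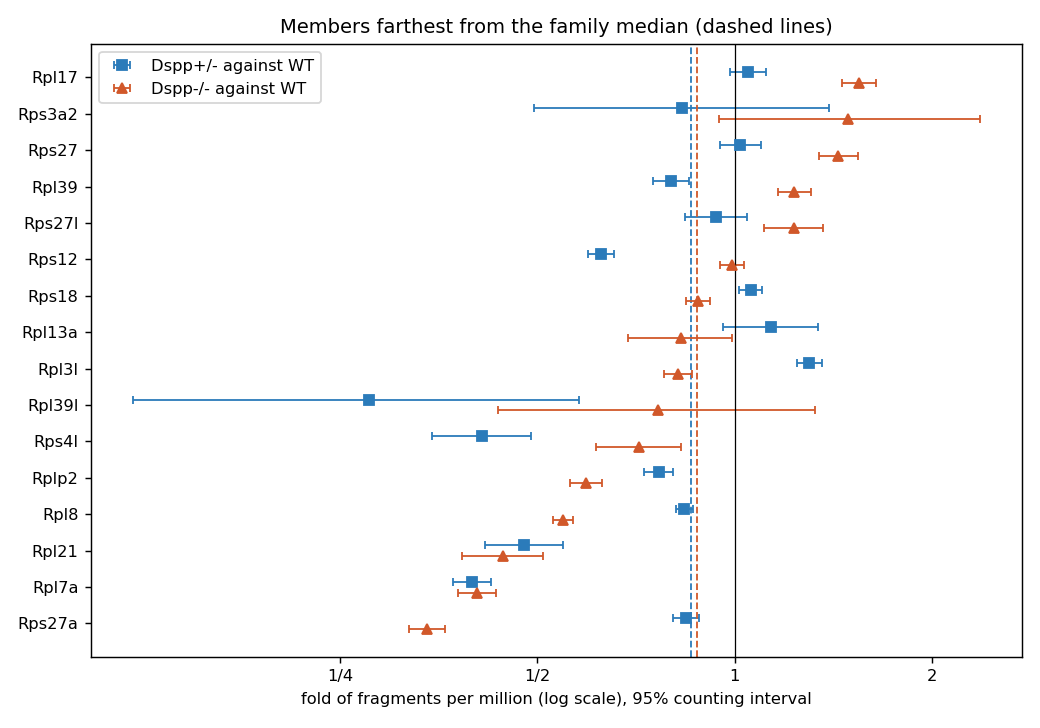
Fold against WT (log axis) with its 95% counting interval for 16 members furthest from the family median, with squares for Dspp+/-, triangles for Dspp-/- and dashed lines at the family medians. Rpl7a and Rpl21, before their copies are added (which brings them to 0.618 and 0.700 in Dspp+/-), lie far below the family in both mutants, Rps12 in Dspp+/- and Rps27a, Rpl8 and Rplp2 in Dspp-/-, while Rpl17 and Rps27 lie above it in Dspp-/-.

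Measured from the family's own median instead of from WT, 5 members lay 1.5-fold or more away in Dspp+/- and 7 in Dspp-/-. The same distance from the median of all genes was reached by 20.3% and 17.1% of all genes. In Dspp+/- Rpl3l lay above and Rpl7a, Rps4l, Rpl39l and Rpl21 lay below. In Dspp-/- Rpl17, Rps27 and Rps3a2 lay above and Rps27a, Rpl7a, Rpl21 and Rpl8 lay below.

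The proteins of the stalk, Rplp0, Rplp1 and Rplp2, were below WT in both mutants, although Rplp0 in Dspp+/- turned above WT with the mitochondrially encoded genes left out of the scaling. Rplp0 had folds of 0.955 in Dspp+/- and 0.872 in Dspp-/-, Rplp1 had 0.828 and 0.882, and Rplp2 was furthest from WT in both. Ribosomal proteins with other symbols stand outside the rule. Rpsa, a small subunit protein also known as a laminin receptor, stood at 206, 221 and 198 FPKM, and Fau, which encodes a ubiquitin-like protein fused to a small subunit protein, at 174, 136 and 125 FPKM. Rack1, a scaffold protein on the small subunit, stood at 108, 104 and 99.0 FPKM. Fau and Rack1 were highest in WT and lowest in Dspp-/-, as were Rps27a and Rpl8. Rack1 had a log2 ratio of only -0.06 in Dspp+/-. Leaving the mitochondrially encoded genes out of the scaling shifts that library by 0.12, which puts Rack1 above WT.

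Some members have known roles outside the ribosome. Rpl5 and Rpl11, which with 5S RNA can bind Mdm2 and so stabilise p53, stood at 106, 98.4 and 94.8 FPKM and at 79.4, 62.8 and 54.8 FPKM. Rps6, the substrate of the S6 kinases, was at 201, 198 and 188 FPKM. Rps19 and Rps14, whose human counterparts are linked to inherited and acquired anaemias, were at 34.5, 29.0 and 27.7 FPKM and at 181, 159 and 164 FPKM. These genes were picked for their roles and after their values were known. In each of them WT was the highest library, although with the mitochondrially encoded genes left out of the scaling Rpl5 in Dspp+/- and Rps6 in both mutants turned above WT.

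Several paralogs had another order of libraries than their standard partners. Rpl3l replaces Rpl3 in ribosomes of striated muscle. Over its coding sequence it is 74.4% identical to Rpl3, far enough apart that Rpl3l shares no stretch of 100 bases with any other gene. Codons 2 to 21 are shown to make that plain, with differing bases in capitals, from the annotated coding sequences of Rpl3 (chr15:80077791-80091868, minus strand) and Rpl3l (chr17:24727820-24736143, plus strand) on GRCm38.
Rpl3: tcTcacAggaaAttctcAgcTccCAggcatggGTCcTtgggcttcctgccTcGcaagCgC
Rpl3l: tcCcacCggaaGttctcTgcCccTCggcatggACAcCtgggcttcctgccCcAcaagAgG

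Rpl3l stood at 102, 132 and 83.3 FPKM in WT, Dspp+/- and Dspp-/-, while Rpl3 stood at 119, 98.8 and 106. Dspp+/- had a fold of 1.30 (1.245 to 1.359) for Rpl3l and Dspp-/- one of 0.819 (0.779 to 0.860), so the Dspp+/- library was the highest for Rpl3l and the lowest for Rpl3. Which of the pair is the more abundant in Dspp+/- depends on the length used: scaled to the main transcript, Rpl3 stood at 280, 232 and 249 and Rpl3l at 122, 158 and 99.5 FPKM, Rpl3 being higher in every library. Skeletal muscle markers had their highest sum in the same library. The 15 markers summed to 12824, 16951 and 13494 FPKM in WT, Dspp+/- and Dspp-/-, and of the 13 that passed the filter 9 were higher and 4 lower in Dspp+/-, and 5 higher and 8 lower in Dspp-/-. They did not move as one. Myh2, a fast oxidative myosin, was at 342, 706 and 359 FPKM and myoglobin (Mb) at 1204, 1763 and 944, whereas Myh4, the fastest myosin, was at 124, 18.2 and 111. The fast troponin gene Tnnc2 was listed at 0, 0.0529 and 0. The part of muscle tissue in the Rpl3l values was not tested.

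Rpl39l, a paralog known for its expression in testis, is 85.0% identical to Rpl39 over the coding sequence and is shown from base 49 to 108 (Rpl39 chrX:37082520-37085402, minus strand, and Rpl39l chr16:10170226-10174911, plus strand, GRCm38), differing bases in capitals.
Rpl39: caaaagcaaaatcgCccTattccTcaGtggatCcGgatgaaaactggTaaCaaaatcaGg
Rpl39l: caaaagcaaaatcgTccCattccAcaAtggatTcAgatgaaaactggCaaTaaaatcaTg

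Rpl39l rested on 31, 10 and 26 fragments in WT, Dspp+/- and Dspp-/-, or 1.84, 0.510 and 1.41 FPKM. Its fold in Dspp+/- was 0.277, with a wide counting interval of 0.121 to 0.579. At this depth a difference between WT and Dspp-/- was not detectable, since the interval there ran from 0.435 to 1.33. The level was low beside Rpl39 in every library.

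Rps27l, a paralog induced by p53, is 76.2% identical to Rps27 and is shown from base 28 to 87 of the coding sequence (Rps27 chr3:90212522-90213651, minus strand, and Rps27l chr9:66946086-66949516, plus strand, GRCm38), differing bases in capitals.
Rps27: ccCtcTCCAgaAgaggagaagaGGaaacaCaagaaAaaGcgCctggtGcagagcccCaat
Rps27l: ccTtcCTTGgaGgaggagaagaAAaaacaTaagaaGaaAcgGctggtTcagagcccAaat

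Rps27l stood at 38.5, 36.0 and 47.4 FPKM in WT, Dspp+/- and Dspp-/-, with folds of 0.935 (0.839 to 1.04) and 1.23 (1.11 to 1.37). Like Rps27 it was highest in Dspp-/-. Rpl22l1, which Rpl22 is known to repress, stood at 16.8, 14.3 and 19.3 FPKM, while Rpl22 itself stood at 50.7, 42.7 and 39.9. The ratio of the paralog to its partner was therefore highest in Dspp-/-, where Rpl22l1 was 1.15 times WT (1.04 to 1.28) and Rpl22 was 0.787 times WT (0.746 to 0.830). Rpl7l1, thought to act in assembly of the large subunit, stayed close to WT at 16.6, 16.2 and 15.9 FPKM, and so did Rpl7 at 192, 180 and 193.

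The annotated pseudogenes that passed the filter were all below WT in Dspp+/-, and they split in Dspp-/-. Rps4l, a copy of the X-linked gene Rps4x, was at 21.5, 8.85 and 15.3 FPKM in WT, Dspp+/- and Dspp-/-, with folds of 0.412 (0.346 to 0.489) and 0.714 (0.615 to 0.829). It is 79.6% identical to Rps4x, and 2.03% of the 100-base stretches of its transcript occur in another gene. Rps4x was nearly level at 292, 270 and 283 FPKM. Rpl6l was at 16.9, 15.8 and 20.8 FPKM. Rps3a2 and Rps3a3 were at 2.06, 1.71 and 3.06 FPKM and at 1.55, 1.01 and 1.19 FPKM, and the counting intervals of their folds against WT held 1 in both mutants.

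Copies elsewhere in the genome hold part of the reads of many members. For 78 of the 87 members at least 1 stretch of 100 bases of the main transcript occurs in another annotated gene, for 39 at least 50% of such stretches do, and 9 have none. For 73 members a copy is present in the table, counting only pseudogenes and genes with -ps or rt symbols. Reads of the member and of its copies cannot be fully told apart. In WT, 5 members had more than 50% of the summed fragments of gene and copies in the copies, led by Rps10 at 96.8%, with Rpl6l, Rpl17, Rpl36al and Rpl21 between 66.3% and 70.1%. Rpl6l is itself an annotated pseudogene. The copies counted for it held 698, 825 and 666 fragments in WT, Dspp+/- and Dspp-/-, the same as those counted for Rpl6.

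Rps10 shows how far this can go, and its sequence is given for that reason. The coding sequence of Rps10 (chr17:27630418-27636669, minus strand, GRCm38) and the annotated pseudogene Rps10-ps2 (chr16:20822145-20822640, minus strand) are 99.0% identical, with 5 of 495 aligned bases different. Bases 334 to 393 of the coding sequence differ at the last base, in capitals.
Rps10: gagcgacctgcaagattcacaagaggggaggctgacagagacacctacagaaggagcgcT
Rps10-ps2: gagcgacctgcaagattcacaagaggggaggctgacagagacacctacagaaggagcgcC

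Rps10 held 36, 42 and 43 fragments in WT, Dspp+/- and Dspp-/-, and Rps10-ps2 held 994, 1093 and 901. Per length, the copy stood at 99.0, 93.3 and 81.6 FPKM, the range of a standard subunit gene. Added together, the Rps10 gene and its copies were 0.931 times WT (0.858 to 1.01) in Dspp+/- and 0.817 times WT (0.750 to 0.890) in Dspp-/-. The low value listed for Rps10 thus went with a high value at its copy.

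Rps27 and Rps27rt (chr9:114982366-114982739, minus strand, GRCm38) have identical coding sequences over all 252 bases, of which the first 60 are shown.
Rps27: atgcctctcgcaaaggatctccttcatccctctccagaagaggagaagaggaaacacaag
Rps27rt: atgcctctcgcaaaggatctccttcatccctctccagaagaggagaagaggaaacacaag

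Rps27rt stood at 91.7, 76.8 and 118 FPKM in WT, Dspp+/- and Dspp-/-. Added up, Rps27 and its copies were 0.961 times WT in Dspp+/- and 1.39 times WT (1.31 to 1.47) in Dspp-/-, close to the gene alone. Rpl17 moved more on adding its 11 copies, from 1.55 to 1.248 times WT (1.21 to 1.29) in Dspp-/-. The Dspp-/- library stayed the highest for both, but Rpl17 then lay under 1.5-fold.

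For Rpl7a the copies went the other way from the gene. The gene held 2762, 1279 and 1228 fragments in WT, Dspp+/- and Dspp-/-, while its 26 copies held 398, 999 and 768. The copies thus held 12.6% of the summed fragments in WT and 43.9% and 38.5% in the mutants. Gene and copies together were 0.618 times WT (0.585 to 0.652) in Dspp+/- and 0.575 times WT (0.543 to 0.608) in Dspp-/-, closer to WT than the gene alone. Rpl21 with its 26 copies was 0.700 times WT (0.653 to 0.751) in Dspp+/- and 0.507 times WT (0.469 to 0.549) in Dspp-/-.

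Rps12 moved little on adding copies, and Rps27a moved somewhat closer to WT in Dspp-/-. With copies Rps12 was 0.663 times WT (0.637 to 0.690) in Dspp+/- and 1.01 times in Dspp-/-, and its main copy Rps12-ps3 was also lowest in Dspp+/-, at 149, 114 and 166 FPKM. With copies Rps27a was 0.824 and 0.397 times WT (0.376 to 0.420 in Dspp-/-), against 0.842 and 0.339 for the gene alone. Copies held 8.90%, 6.93% and 22.2% of the summed fragments of Rps27a in WT, Dspp+/- and Dspp-/-. Its main copy Rps27a-ps3, which differs from Rps27a at 1 of 468 coding bases, stood at 34.0, 20.1 and 33.9 FPKM and so was not lower in Dspp-/-. Rpl8, Rplp2, Rpl39 and Rpl3l have no copy of the kind counted here. Still, 39.1% of the 100-base stretches of Rplp2 occur in another annotated gene, as do 1.73% for Rpl8 and 1.75% for Rpl39.

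**Figure D3:**
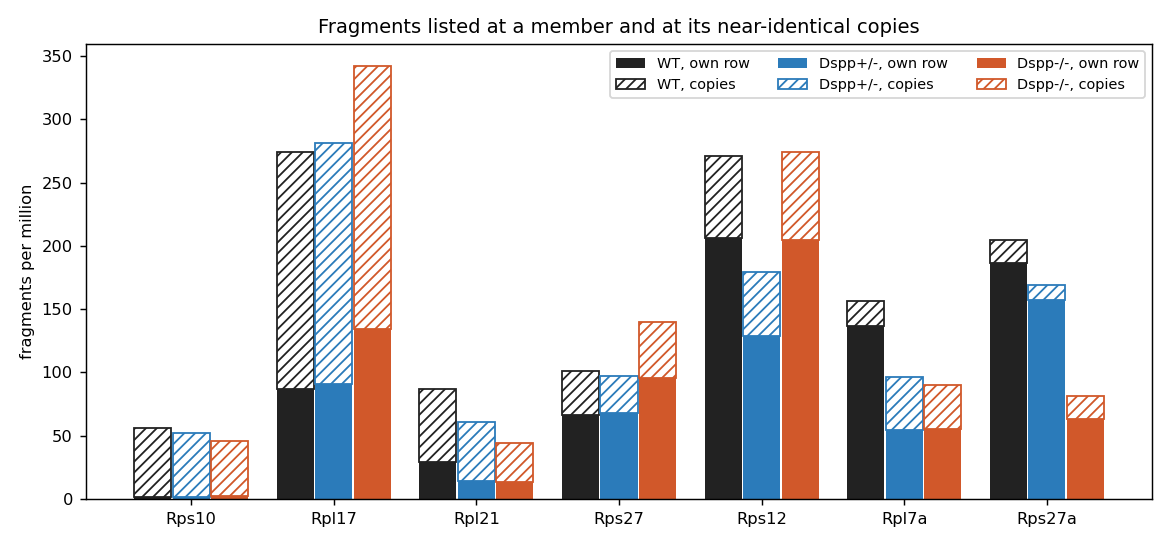
Fragments listed at the gene itself (solid) and at its copies (hatched) in each library for 7 members, scaled to library depth, as stacked bars from 0. Rps10 is almost wholly in its copies, and the copies of Rpl7a hold a larger part of the bar in the mutants, 43.9% and 38.5%, than in WT, 12.6%.

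The 62 rows with -ps symbols that passed the filter, of 158 in the table, had median log2 ratios of -0.15 in Dspp+/- and -0.11 in Dspp-/-. Both lay on the same side as the members under every scaling. Their interquartile ranges of 0.46 and 0.65 were wider than those of the members.

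GC content moved with the ratios, mostly in Dspp-/-. Over 12981 genes the Spearman correlation of GC content with the log2 ratio was -0.17 in Dspp+/- and -0.50 in Dspp-/-, and over the 84 members it was -0.04 and -0.36. For the length of the main transcript it was -0.01 and 0.09 over all genes. Over the members it was 0.30 and -0.04, so in Dspp+/- shorter members tended to lie lower. These are correlations across genes of the same pair of libraries and carry no test. When all genes were split into 5 equal groups by GC content, the members' median lay below that of all genes in every group in both comparisons. In Dspp-/-, for instance, it was -0.22 against 0.11 in group 2, with 25 members, and -0.43 against -0.31 in group 5, the richest in GC, with 14. After adjusting ratios in 20 bins of GC content, an alternative chosen after the data were seen, Rpl8 and Rplp2 had log2 ratios of -0.57 and -0.54 in Dspp-/- and Rpl17 also lay under 1.5-fold. The part of GC content in the ratios of single members was not tested beyond this adjustment.

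**Figure D4:**
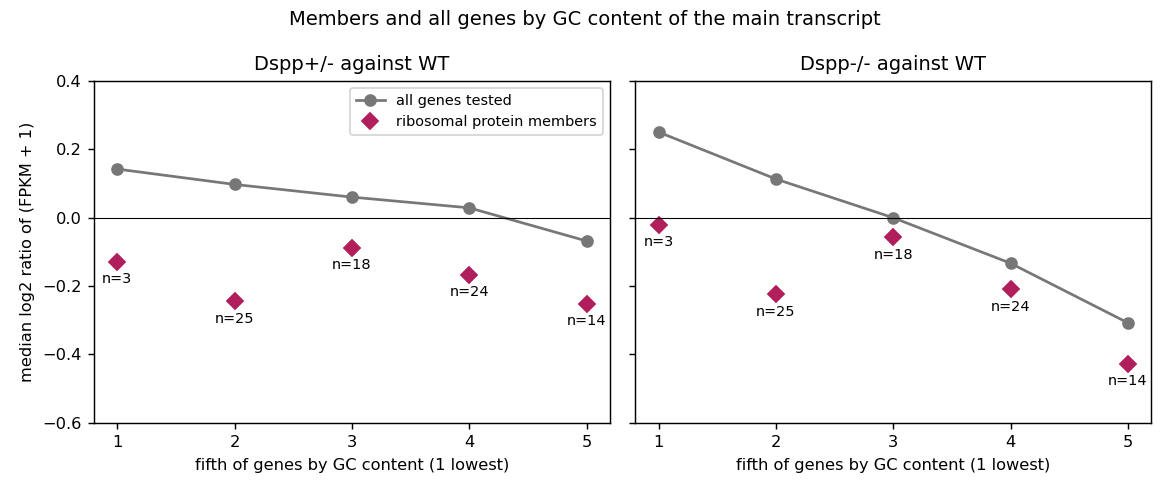
Median log2 ratio of FPKM with 1 added in 5 equal groups of genes by GC content of the main transcript, for all genes (line) and for members (diamonds, with their number), for Dspp+/- and Dspp-/- against WT. The members lie below all genes in every group, and the line for all genes is steeper in Dspp-/-, from 0.25 in group 1 to -0.31 in group 5.

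Some of these genes carry a feature at the start of the transcript that the symbol rule did not use. RefSeq promoter sequences (GRCm38.p6) were matched for 63 of the 87 members, among them 56 standard subunit genes. A TOP-type run, taken as C followed by at least 4 bases that are each C or T on the sense strand, could be read from the annotated start itself in 13 of those 56, or 23.2%, against 3.01% of all 27025 genes with a promoter sequence. It occurred in 0 of 68 genes of mitochondrial ribosomal proteins and in 0 of 31 proteasome genes. Starting anywhere within 10 bases of the start, a run was found in 60.7% of the standard subunit genes, 34.4% of all genes, 45.6% of the mitochondrial ribosomal protein genes and 32.3% of the proteasome genes, so the looser search separates the sets less. Annotated starts can be off by a few bases, so a gene without a run at that exact base may still carry the motif.

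The 15 bases on each side of the annotated start are shown for members with a clear run and for Rpl7a, which lay far below the family, with the run in capitals. Positions are for Rps6 chr4:86857353-86857382 (minus strand), Rpl14 chr9:120571502-120571531 (plus), Rpl28 chr7:4792950-4792979 (plus), Rpl35 chr2:39005117-39005146 (minus), Rps27 chr3:90213634-90213663 (minus) and Rpl7a chr2:26910792-26910821 (plus). The capitals begin at the start itself, except in Rpl7a, where they begin 10 bases before it, the limit of the search. In several of them pyrimidines continue on the left of the capitals.
Rps6: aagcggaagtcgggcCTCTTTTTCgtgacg
Rpl14: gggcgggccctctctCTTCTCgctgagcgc
Rpl28: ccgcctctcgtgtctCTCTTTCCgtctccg
Rpl35: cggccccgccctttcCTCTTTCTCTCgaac
Rps27: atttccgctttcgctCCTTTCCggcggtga
Rpl7a: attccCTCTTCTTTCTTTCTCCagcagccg

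Members with a run at the exact start did not stand apart in the mutants. The 12 of them that passed the filter had median log2 ratios of -0.19 in Dspp+/- and -0.17 in Dspp-/-, and the 43 without had -0.23 and -0.23. Among the 43 are genes with a run near the start, such as Rpl7a. The split therefore cannot separate genes that carry the motif from genes that do not. In each mutant 10 of the 12 were below WT, against 41 and 37 of the 43. Values among the 12 ranged widely in Dspp-/-, from Rplp2 at 76.2 FPKM in WT and 45.2 in Dspp-/- to Rps27 at 63.8 and 91.8.

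Against each other, the mutants differed little at the level of the family. The median log2 ratio of Dspp-/- against Dspp+/- was -0.008, with 41 members higher and 43 lower (all genes -0.037, 55.3% lower), and its sign turned with the scaling, between -0.02 and 0.05. The subunits lay on opposite sides of 0, with medians of -0.07 for the large and 0.05 for the small, and kept those signs under every scaling. The split was weak: 18 large subunit genes were higher and 28 lower, and 16 small subunit genes were higher and 13 lower. The interquartile ranges, 0.22 and 0.27, were wider than either median's distance from 0. At 1.5-fold or more, 4 members were higher in Dspp-/- (all genes 3.39%) and 3 lower (all genes 4.32%). Rpl39, Rps12, Rps4l and Rpl39l had FPKM ratios of 1.54, 1.59, 1.73 and 2.76, while Rps27a, Rpl3l and Rpl8 had 0.403, 0.629 and 0.652. Of the members 8 lay 1.5-fold or more from the family median, against 7.37% of all genes from theirs.

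Assembly factors and genes of translation initiation lay above WT in Dspp+/- more often than the ribosomal proteins did. They also did so more often than all genes, of which 7337 of 13026 were higher in Dspp+/- and 6609 in Dspp-/-. Of 35 assembly factors, 28 were higher and 7 lower in Dspp+/-, with a median log2 ratio of 0.21, and 17 were higher and 18 lower in Dspp-/-, with a median of -0.004 whose sign turned with the scaling. Of 29 genes listed for translation initiation, Tpt1 among them, 22 were higher in Dspp+/- and 19 in Dspp-/-. Their medians were 0.14 and 0.11, the second turning negative under scaling to housekeeping genes. Npm1, a nucleolar chaperone of ribosome assembly and the most abundant factor of its list, stood at 51.6, 57.1 and 56.2 FPKM. Eif2s3x, a subunit of the initiation factor that carries the initiator tRNA, stood at 13.2, 21.1 and 19.6 FPKM. Eif6, which keeps the large subunit from joining too early, went the other way at 13.5, 11.3 and 8.43 FPKM.

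Elongation factors were split. Of 7, 4 were higher in Dspp+/- and 2 in Dspp-/-, with medians of 0.15 and -0.13. Eef1a1, which delivers aminoacyl-tRNA to the ribosome, stood at 1513, 1171 and 1380 FPKM in WT, Dspp+/- and Dspp-/-. Its muscle and neuron counterpart Eef1a2 stood at 332, 556 and 376 FPKM. Dspp+/- was the highest library for it as for Rpl3l, but Eef1a2 was lowest in WT and Rpl3l in Dspp-/-. The 13 genes of RNA polymerase I and its factors had medians of 0.01 and -0.14, the first with a sign that turned with the scaling.

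Regulators gave no common direction. The 10 growth regulators of ribosome synthesis that passed the filter had medians of 0.25 and -0.01, the second turning with the scaling, with Myc at 5.80, 8.67 and 7.31 FPKM and the translation repressor Eif4ebp1 at 14.7, 11.9 and 9.47. Of the 7 genes listed for ribosomal protein surveillance, which include the kinase genes Rps6ka1 and Rps6ka3, 4 were higher and 3 lower in each mutant. Both medians (0.08 and 0.10) turned sign with the scaling. Cdkn1a, the p53 target that halts the cell cycle, stood at 59.0, 49.1 and 28.0 FPKM. The kinase gene Rps6ka1 stood at 2.84, 12.2 and 9.56 FPKM.

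Other large complexes served as comparators. Mitochondrial ribosomal proteins had a median of 0.20 in Dspp+/-, with 59 of 77 higher, and of -0.09 in Dspp-/-, with 46 of 77 lower, the second turning sign with the scaling. Proteasome subunits had medians of 0.22, with 33 of 37 higher, and 0.03, again turning with the scaling. In Dspp+/- the cytosolic ribosomal proteins thus lay on the other side of 0 from both complexes under every scaling tried. In Dspp-/- the members had the lowest median of the 3. The 9 housekeeping genes had a median of 0.14 in each mutant, 7 higher and 2 lower.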

How the data were processed

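The deposited table gives 1 value per gene and library, read here as FPKM that the authors computed. The submitters' processing notes name FastQC 0.11.5, HISAT2 2.1.0, StringTie 1.3.3b and DESeq 1.28.0 and the build hg38, although the positions in the table are those of mouse genes on another build than GRCm38, so table positions were not printed. Values were multiplied by the merged exon length of GENCODE M21 and by the depth that made low values whole. Within a tolerance of 0.05 fragments, 98.2% of 26652 genes and all 87 members came out whole, and those fragments gave the Clopper-Pearson 95% counting intervals, which cover counting error only. Ratios are log2 of FPKM with 1 added, for genes whose mean FPKM was 1 or more, and 1.5-fold was the threshold. With 1 library per genotype there was no test, and the labels mention triplicates that the table does not separate. The labels do not say whether counting used strand, so overlapping antisense genes are not separated. Copies were genes that share a stretch of 100 bases with the main transcript of a member and are annotated as pseudogenes or carry a -ps or rt symbol. Other members, and genes whose fragments did not come out whole, were not counted as copies. Members and gene lists were chosen with earlier results of these data known. Named members were the 5 most and 5 least abundant, the 5 furthest above and below the family median in each mutant, those past 1.5-fold, the stalk and the paralogs with their partners, and in each list the most abundant gene and those with the largest and smallest ratio in Dspp+/-, of which a selection is printed. Some genes that entered the counts and medians are not reported here. Scripts ran on Python 3.11.15 with NumPy 2.4.6, pandas 2.3.3, SciPy 1.17.1, Biopython 1.88 and Matplotlib 3.10.9, and were tested on simulated data. No protein sequences were used here.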

Additional observations from a re-analysis of the deposited data

How the results depend on the processing

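The members' median was below 0 against WT in both mutants under every alternative run. In Dspp+/- (-0.22) it moved to -0.30 under median-ratio scaling, -0.31 under upper-quartile scaling, -0.35 under scaling to housekeeping genes and -0.11 without the mitochondrially encoded genes. In Dspp-/- (-0.19) it moved to -0.32 and -0.083 under the last 2 and to -0.11 after GC adjustment. Between the mutants (-0.008) it was 0.11 over members with under 10% shared sequence.

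The counts past 1.5-fold were less firm. For Dspp+/- against WT (7) the count was 4 with a pseudocount of 5 and 4 without the mitochondrially encoded genes, 2 among members with under 10% shared sequence, 23 at a difference of 25% and 2 at 2-fold. For Dspp-/- (7) it was 18 under scaling to housekeeping genes, 1 with under 10% shared sequence, 30 at a difference of 25% and 2 at 2-fold. Between the mutants (7) it was 4 with a pseudocount of 5, without the paralogs, after GC adjustment or over the standard subunit genes, 21 at a difference of 25% and 1 at 2-fold.

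Counted from the family median, Dspp+/- (5) gave 2 with a pseudocount of 5, without the paralogs, with copies added or over the standard subunit genes, 3 with under 10% shared sequence, 11 at a difference of 25% and 1 at 2-fold. Dspp-/- (7) gave 1 with under 10% shared sequence, 22 at a difference of 25% and 2 at 2-fold. Between the mutants (8) it was 5 with a pseudocount of 5 or without the paralogs, 3 with under 10% shared sequence, after GC adjustment or over the standard subunit genes, 21 at a difference of 25% and 1 at 2-fold. Fewer members entered where some were left out, and the cause of the other moves was not tested.

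The family's shares of FPKM (3.60%, 2.73% and 2.76%) were 4.81%, 4.33% and 4.40% without the mitochondrially encoded genes, 3.78%, 2.91% and 2.91% without hemoglobin, immunoglobulin and muscle marker genes, and 1.84%, 1.64% and 1.59% as fragments. Of the alternative values for single named members, 778 kept their side of 1.5-fold, 9 no longer passed it (Rpl21, Rpl39l and Rps12 in Dspp+/-, Rpl17, Rpl8 and Rplp2 in Dspp-/-) and 5 newly passed it. Rpl41, Rps28 and Rpl13, named only for passing 1.5-fold, were not among the members counted here. With the mitochondrially encoded genes left out of the scaling, Rpl41 and Rps28 had log2 ratios of -0.54 and -0.52 in Dspp+/-, under 1.5-fold. GC adjustment, adding copies and keeping standard subunit genes alone were chosen after seeing the data. No paired analysis was possible because each genotype has 1 library and no result comes from a test.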
